A study of Homo sapiens with 4 samples.

Results

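The genes of the aminoacyl-tRNA synthetases were examined in a map of STAT5A binding. ARP1, an established line of human multiple myeloma, was the cell used, and binding was read by ChIP-seq (sequencing of immunoprecipitated chromatin). The members were all called peaks whose gene symbol, as the peak lists give it, is that of a synthetase. They numbered 43 of 31227 peaks in cells with a YTHDF2 knockdown and 66 of 55269 peaks in wild-type cells. These peaks named 32 genes in knockdown and 31 in wild type, all among the 37 protein-coding synthetase genes in RefSeq. The study holds 4 libraries, a STAT5A pull-down and its input from YTHDF2 knockdown ARP1 cells and the same pair from wild-type ARP1 cells. The sources used here do not give how the knockdown was made or whether it is 1 clone, and the wild-type cells carry no further label. With 1 peak list per condition there is no replicate check and no test between conditions, and the read depth is unknown. Where a range follows a share below, it is the 95% interval (Clopper-Pearson, exact), which covers only counting error.

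An aminoacyl-tRNA synthetase joins an amino acid to its matching transfer RNA (tRNA), the step that sets the genetic code at the ribosome. Cytosol and mitochondria are mostly served by separate enzymes, both encoded in the nucleus, while GARS1 and KARS1 (glycine and lysine) serve both. Several cytosolic synthetases sit together in the multi-synthetase complex, held by the scaffold proteins AIMP1, AIMP2 and EEF1E1. Genes of many cytosolic synthetases are known targets of ATF4, the transcription factor of the amino acid response, which binds the C/EBP-ATF response element. Myeloma cells descend from plasma cells, which make and secrete large amounts of antibody. STAT5A acts downstream of the JAK kinases and binds palindromes of the form TTCNNNGAA, and YTHDF2 is a reader of N6-methyladenosine that promotes decay of the RNA it binds. A STAT5A peak measures occupancy of chromatin and not expression of the gene. Of 7 plasma cell marker genes, 6 had a credited peak within 1 kb of a start in both lists, against 53.6% of all protein-coding genes, and TNFRSF17 had none in either.

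The DNA just before the starts of 9 synthetase genes is printed first, because the strongest peaks, the shared promoters and the empty promoters of the family lie there. Each sequence comes from the RefSeq promoter table of GRCh38.p14, reads 5′ to 3′ on the strand of the named gene and ends 1 base before its most upstream listed start. Each holds at most 200 bases and is shorter where an oppositely oriented neighbour starts sooner. Capitals mark matches on either strand to CCAAT (bound by NF-Y), CCGGAAG (the ETS family), TTCNNNGAA (the STAT family) and TGATGNAAN (the C/EBP-ATF response element). Isoleucine, tryptophan, mitochondrial serine and alanine enzymes come first, as the promoters under 4 of the strongest peaks. They lie at chr9:92293698-92293897, chr14:100376328-100376484, chr19:38930764-38930943 and chr16:70289507-70289706, all on the minus strand.
IARS1: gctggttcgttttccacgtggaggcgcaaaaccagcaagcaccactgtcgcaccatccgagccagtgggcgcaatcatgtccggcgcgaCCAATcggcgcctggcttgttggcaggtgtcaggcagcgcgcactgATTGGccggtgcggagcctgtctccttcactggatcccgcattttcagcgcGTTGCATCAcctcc
WARS1: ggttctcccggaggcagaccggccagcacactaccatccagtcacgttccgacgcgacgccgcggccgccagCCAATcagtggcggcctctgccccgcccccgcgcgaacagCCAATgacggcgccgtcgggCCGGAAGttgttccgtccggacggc
SARS2: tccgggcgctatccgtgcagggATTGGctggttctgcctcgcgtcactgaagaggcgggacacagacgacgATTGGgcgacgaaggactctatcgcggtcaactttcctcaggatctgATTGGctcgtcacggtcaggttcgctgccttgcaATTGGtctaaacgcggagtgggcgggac
AARS1: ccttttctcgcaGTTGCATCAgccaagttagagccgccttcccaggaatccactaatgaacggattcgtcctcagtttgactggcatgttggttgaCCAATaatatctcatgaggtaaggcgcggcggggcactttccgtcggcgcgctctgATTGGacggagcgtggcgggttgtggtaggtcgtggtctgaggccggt

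The next 3 are promoters whose peak is credited to a neighbour. They lie at chr6:87589988-87590134 (between RARS2 and ORC3), chr5:140691371-140691454 (between HARS1 and HARS2) and chr1:119140673-119140872, all on the minus strand.
RARS2: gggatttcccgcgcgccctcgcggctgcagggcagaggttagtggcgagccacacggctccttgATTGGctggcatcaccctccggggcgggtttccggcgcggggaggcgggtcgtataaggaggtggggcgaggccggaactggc
HARS1: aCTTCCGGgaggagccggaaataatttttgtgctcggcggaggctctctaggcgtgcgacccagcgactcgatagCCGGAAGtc
WARS2: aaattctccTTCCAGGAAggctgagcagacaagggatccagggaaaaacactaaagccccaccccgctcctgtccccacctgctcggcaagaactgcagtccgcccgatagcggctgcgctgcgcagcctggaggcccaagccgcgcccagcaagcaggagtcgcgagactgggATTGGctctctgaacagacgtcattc

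The last 2 are the promoters with no STAT5A peak in either list, SARS1 at chr1:109213693-109213892 and LARS2 at chr3:45388376-45388575, both on the plus strand.
SARS1: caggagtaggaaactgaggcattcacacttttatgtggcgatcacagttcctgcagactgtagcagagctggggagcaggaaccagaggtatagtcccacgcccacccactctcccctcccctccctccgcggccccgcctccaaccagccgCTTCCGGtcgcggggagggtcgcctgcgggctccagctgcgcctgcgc
LARS2: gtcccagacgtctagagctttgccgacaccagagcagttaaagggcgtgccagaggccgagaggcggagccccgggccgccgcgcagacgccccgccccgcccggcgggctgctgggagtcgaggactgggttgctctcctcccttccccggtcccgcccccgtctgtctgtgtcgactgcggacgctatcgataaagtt

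STAT5A peaks lay at the starts of most synthetase genes in both conditions, and nearly the same genes were marked. A peak credited to the gene within 1 kb of a transcript start was present for 29 of 37 genes in knockdown (78.4%, 61.8 to 90.2%) and for 30 of 37 in wild type (81.1%, 64.8 to 92.0%). Of all 19974 protein-coding genes, 56.1% were marked in knockdown and 64.7% in wild type. All 29 knockdown genes were also marked in wild type, 78.4% of the family against 53.6% of all protein-coding genes. No synthetase gene was marked in knockdown alone, against 2.42% of all genes, and 1 (AARS1) was marked in wild type alone, against 11% of all genes. Counting any peak credited to a gene, wherever it lay, 86.5% of the family was named in knockdown, against 65.1% of all genes, and 83.8% in wild type, against 73.6%.

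Cytosolic and mitochondrial enzymes were marked alike in number. Of the 20 cytosolic genes, 15 had a credited promoter peak in knockdown and 16 in wild type, and of the 17 mitochondrial genes, 14 had one in each list. The fold enrichment that the authors give for each peak is a linear ratio. What it is taken over is not stated, so a knockdown value beside a wild-type value is not a measured change. Over the genes with a promoter peak, the strongest fold had a median of 5.57 in knockdown (n = 29) and 10.1 in wild type (n = 30). The medians over all protein-coding genes with such a peak were 5.22 in knockdown and 11.1 in wild type. Cytosolic genes had medians of 4.99 in knockdown and 11.8 in wild type, and mitochondrial genes 5.70 in knockdown and 9.95 in wild type. Thus the family was marked often, at folds close to those of other marked promoters. A fold of at least 20 was reached by 4 of the 37 genes in each list (10.8%, 3.03 to 25.4%), against 4.93% of all protein-coding genes in knockdown and 10.7% in wild type.

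**Figure D1:**
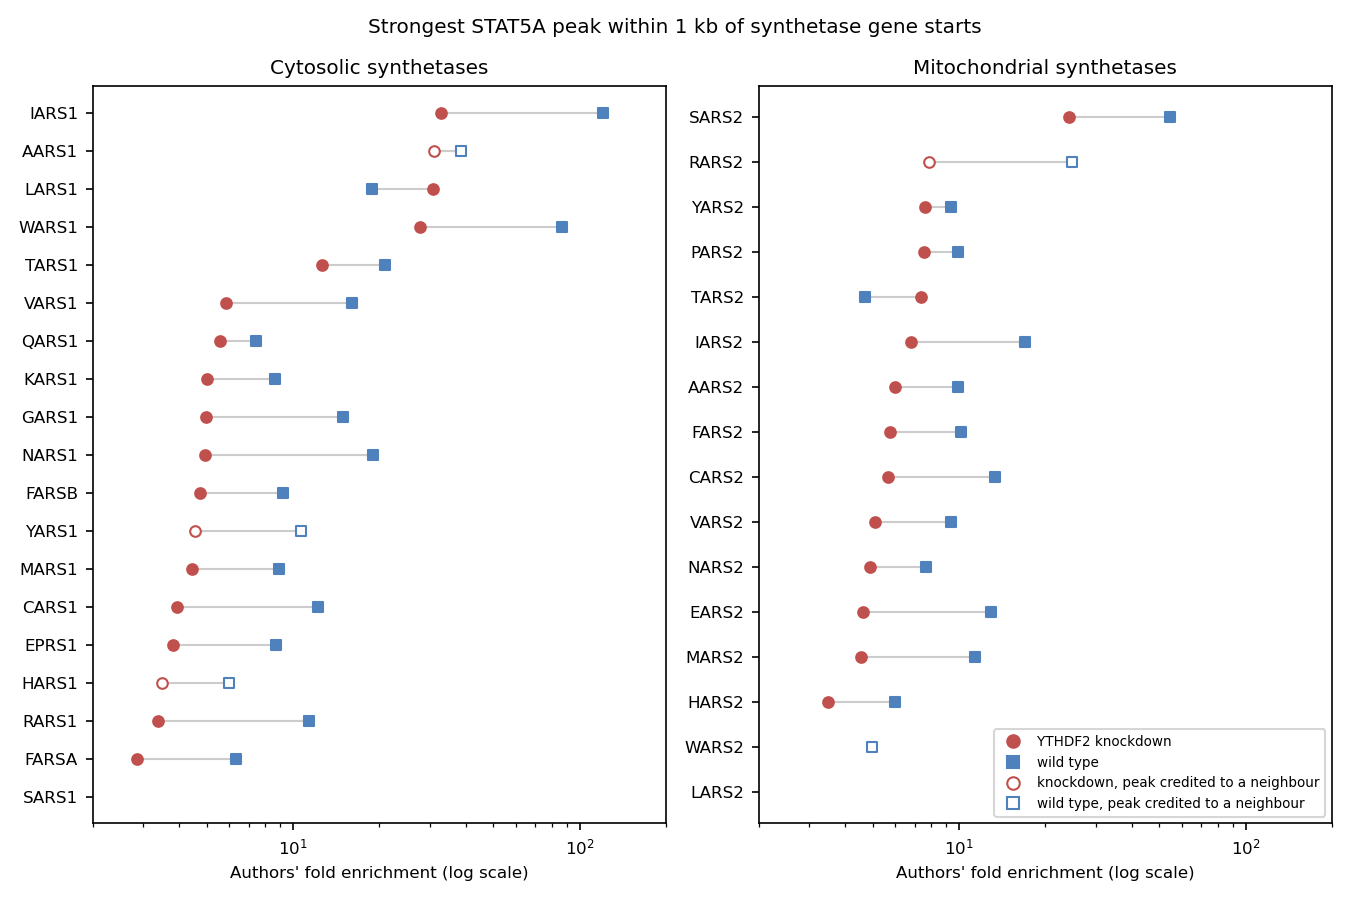
Authors' fold enrichment (log axis) of the strongest STAT5A peak within 1 kb of the start of the synthetase genes shown, for cytosolic genes on the left and mitochondrial genes on the right, with knockdown as circles and wild type as squares. Open symbols are peaks credited to a neighbouring gene alone or, for AARS1, mainly to one; SARS1 and LARS2 have no symbol, and LARS1 and TARS2 have the larger value in knockdown.

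In knockdown the strongest peaks credited to the family lay at 5 genes, and in wild type 4 of them also led, with NARS1 (19) just above LARS1 (18.8). IARS1 (isoleucine, chromosome 9) led the family in either list, with a fold of 32.9 in knockdown at 92293473 to 92293984 and 121 in wild type at 92293540 to 92294015. The knockdown fold exceeded 97.8% of its list, and the wild-type fold 99% of its own. WARS1 (tryptophan, known for induction by interferon gamma, chromosome 14) had folds of 27.8 in knockdown at 100376048 to 100376612 and 86.9 in wild type at 100376025 to 100376600. SARS2, the mitochondrial serine enzyme on chromosome 19, had folds of 24.2 in knockdown at 38930386 to 38931451 and 54.5 in wild type at 38930399 to 38931103. TARS1 (threonine, chromosome 5) followed with 12.6 in knockdown at 33440755 to 33441257 and 20.9 in wild type at 33440723 to 33441286. Every one of these peaks had a counterpart at the same place in the other list.

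LARS1, the cytosolic leucine enzyme, which has also been described as a leucine sensor for mTORC1, stood apart by its order of values. Its fold was 30.8 in knockdown, at chromosome 5, 146182039 to 146183258, and 18.8 in wild type, at 146182481 to 146183650. The authors' q-values were 5.44e-246 in knockdown and 3.37e-124 in wild type. TARS2, the mitochondrial threonine enzyme on chromosome 1, had the same order, with a fold of 7.39 in knockdown at 150487179 to 150487621 and 4.69 in wild type at 150487241 to 150487533. Its q-values were 2.25e-84 in knockdown and 2.75e-18 in wild type, and its fold exceeded 90.2% of the knockdown list and 26% of the wild-type list. The larger number stood in knockdown for 2 of the 29 synthetase genes whose strongest promoter peaks overlapped (6.9%, 0.846 to 22.8%). Of the 9920 protein-coding genes with such a pair, 2.61% had this order, a share inside that interval. The knockdown summits lay 7 bp (LARS1) and 3 bp (TARS2) from the wild-type summits, so the paired peaks were at the same sites. With no replicate and folds on unstated scales, these orders are descriptions of 2 lists.

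Other members of the multi-synthetase complex carried promoter peaks of ordinary strength. Besides IARS1 and LARS1, folds ran in knockdown from 3.38 at RARS1 (arginine) to 5.57 at QARS1 (glutamine), and in wild type from 7.43 at QARS1 to 11.4 at RARS1. EPRS1, a single protein that charges both glutamate and proline tRNAs, had 3.81 in knockdown and 8.70 in wild type. KARS1 had 5.03 in knockdown and 8.67 in wild type, and MARS1 (methionine) 4.43 in knockdown and 8.94 in wild type. The 3 scaffold genes had no credited promoter peak, but a peak within 1 kb of the RefSeq start lay at each of them in both lists. Its fold was 13.3 in knockdown and 28.8 in wild type at AIMP2, 8.42 in knockdown and 9.52 in wild type at EEF1E1, and 3.55 in knockdown and 5.40 in wild type at AIMP1.

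Cytosolic enzymes outside the complex had credited promoter folds from 2.86 to 27.8 in knockdown and from 3.72 to 86.9 in wild type. Inside it, with IARS1 and LARS1 included, they ran from 3.38 to 32.9 in knockdown and from 7.43 to 121 in wild type. NARS1 (asparagine) had a fold of 4.92 in knockdown and 19.0 in wild type, VARS1 (valine) 5.83 in knockdown and 16.1 in wild type, and GARS1 4.99 in knockdown and 15.0 in wild type. CARS1 (cysteine) had 3.94 in knockdown and 12.2 in wild type. The 2 subunits of the phenylalanine enzyme were both marked, FARSB at 4.74 in knockdown and 9.24 in wild type and FARSA at 2.86 in knockdown and 6.34 in wild type. FARSA had the lowest credited promoter fold of the family in knockdown, above only 3.35% of the peaks in that list.

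Among the mitochondrial enzymes, SARS2 stood well above the rest of the credited peaks. In knockdown the next were YARS2 (tyrosine, 7.62), PARS2 (proline, 7.53), TARS2 (7.39) and IARS2 (isoleucine, 6.81). In wild type the next were IARS2 (17), CARS2 (cysteine, 13.4), EARS2 (glutamate, 12.9) and MARS2 (methionine, 11.4). EARS2 also supplies the misacylated tRNA from which mitochondrial glutaminyl-tRNA is made, and it had a fold of 4.63 in knockdown. FARS2 (phenylalanine) had 5.76 in knockdown and 10.2 in wild type, AARS2 (alanine) 5.96 in knockdown and 9.95 in wild type, and VARS2 (valine) 5.09 in knockdown and 9.37 in wild type. HARS2 (histidine) had the lowest fold in knockdown, 3.48, with 5.96 in wild type, and TARS2 had the lowest in wild type.

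Of the synthetase genes, 8 lacked a credited promoter peak in knockdown and 7 did in wild type, and for most of them the peak over the start was credited to a neighbour. The promoter table used here, drawn from RefSeq, lists a start for 30 of the 37 genes. With any peak within 1 kb of a listed start counted, whichever gene it was credited to, 27 of the 30 were marked in knockdown (90%, 73.5 to 97.9%) and 28 in wild type (93.3%, 77.9 to 99.2%). Among 15812 protein-coding genes the same rule marked 65.1% in knockdown and 74.6% in wild type. All 27 were marked in both lists, against 64% of protein-coding genes. For the other 7 genes the ends of the gene interval were used, and all 7 had a peak within 1 kb of an end in both lists. By this count 34 of 37 genes were marked in knockdown and 35 in wild type.

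AARS1 on chromosome 16, the cytosolic alanine enzyme, was the clearest such case. The peak over its start spanned 70289168 to 70289777 in knockdown with a fold of 31.1 and 70289101 to 70289792 in wild type with 38.7, and both were credited to DDX19B, a helicase gene of mRNA export that begins nearby. The weak peaks credited to AARS1 itself lay inside the gene, with folds of 4.35 in knockdown and 3.72 in wild type. The knockdown peak ended 1112 bp from the authors' start, and the wild-type peak 756 bp. AARS1 therefore counted as marked in wild type alone only because 2 overlapping weak peaks ended on different sides of the 1 kb limit. At RARS2, the mitochondrial arginine enzyme, the peak was credited to ORC3, a subunit gene of the origin recognition complex, with folds of 7.89 in knockdown and 24.8 in wild type. YARS1 (tyrosine) lay under a peak credited to S100PBP, with folds of 4.54 in knockdown and 10.7 in wild type.

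Several of these promoters are shared by a pair of genes that run in opposite directions. HARS1 and HARS2, the cytosolic and mitochondrial histidine enzymes, start 84 bases apart, and 1 peak in each list spanned both starts, with folds of 3.48 in knockdown and 5.96 in wild type. It was credited to HARS2, so the peak lists name no peak for HARS1. SARS2 and MRPS12, a mitochondrial ribosomal protein gene, start 180 bases apart, and WARS1 and WDR25 157 bases apart. The strong peaks at SARS2 and WARS1 spanned both starts in both lists, with their summits between them. The same held for RARS2 and ORC3, with 147 bases between the starts. The peaks at KARS1 and TERF2IP (107 bases between starts), FARS2 and LYRM4 (56) and EARS2 and UBFD1 (351) also spanned both starts in both lists. For such a pair the occupancy cannot be given to 1 gene.

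WARS2, SARS1 and LARS2 were the remaining genes. WARS2, the mitochondrial tryptophan enzyme, had a peak over its start in wild type only, at chromosome 1, 119140584 to 119141225, with a fold of 4.99, credited to WARS2-AS1. That fold exceeded 31.4% of the wild-type peaks. SARS1, the cytosolic serine enzyme, had no peak within 1 kb of its starts in either list. The only peak credited to it was an intergenic one in knockdown with a fold of 2.97 and a q-value of 0.0441, 4615 bp from the transcript start the authors used. That start lies inside the gene near its 3′ end, and the peak lies beyond that end, far from the listed start. LARS2, the mitochondrial leucine enzyme, had no peak at its start and none credited to it. For serine, one of the strongest peaks thus lay at the start of the mitochondrial gene and none at that of the cytosolic gene. That peak also spanned the start of MRPS12, so it cannot be given to SARS2 alone. For leucine, a strong peak lay at the cytosolic gene and none at the mitochondrial gene. Depth is unknown, so a missing peak shows only that none passed the threshold.

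Summit positions were taken for the strongest peak within 1 kb of a listed start, where there was one. That search itself limits how far a summit can lie from the start. In knockdown the summit of the strongest peak lay a median of 100 bp from the most upstream start (27 genes, range 15 to 529 bp), with 16 summits upstream and 11 downstream. In wild type the median was 124 bp (28 genes, range 9 to 529 bp), with 16 upstream and 12 downstream. The peak spanned that start at 21 of the 27 genes in knockdown and at 27 of the 28 in wild type. These positions relative to the start were not compared with those at other genes, so they are not shown to be particular to the family. Summits of the 2 lists coincided closely. Among the 29 genes with overlapping strongest promoter peaks, the summits differed by a median of 30 bp, against 53 bp over the 9920 protein-coding genes with such a pair. They lay within 20 bp of each other at 10 of the 29 genes (34.5%, against 28.7% of all pairs) and within 100 bp at 25 (86.2%, 68.3 to 96.1%, against 65.8%). At IARS1 the summits were at 92293779 in knockdown and 92293778 in wild type, 1 bp apart, and at NARS1 they were also 1 bp apart. WARS1 and RARS1 had summits 6 bp apart, and AARS2 2 bp apart. The largest difference, 920 bp at VARS1, arose where 2 knockdown peaks overlapped 1 wild-type peak.

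**Figure D2:**
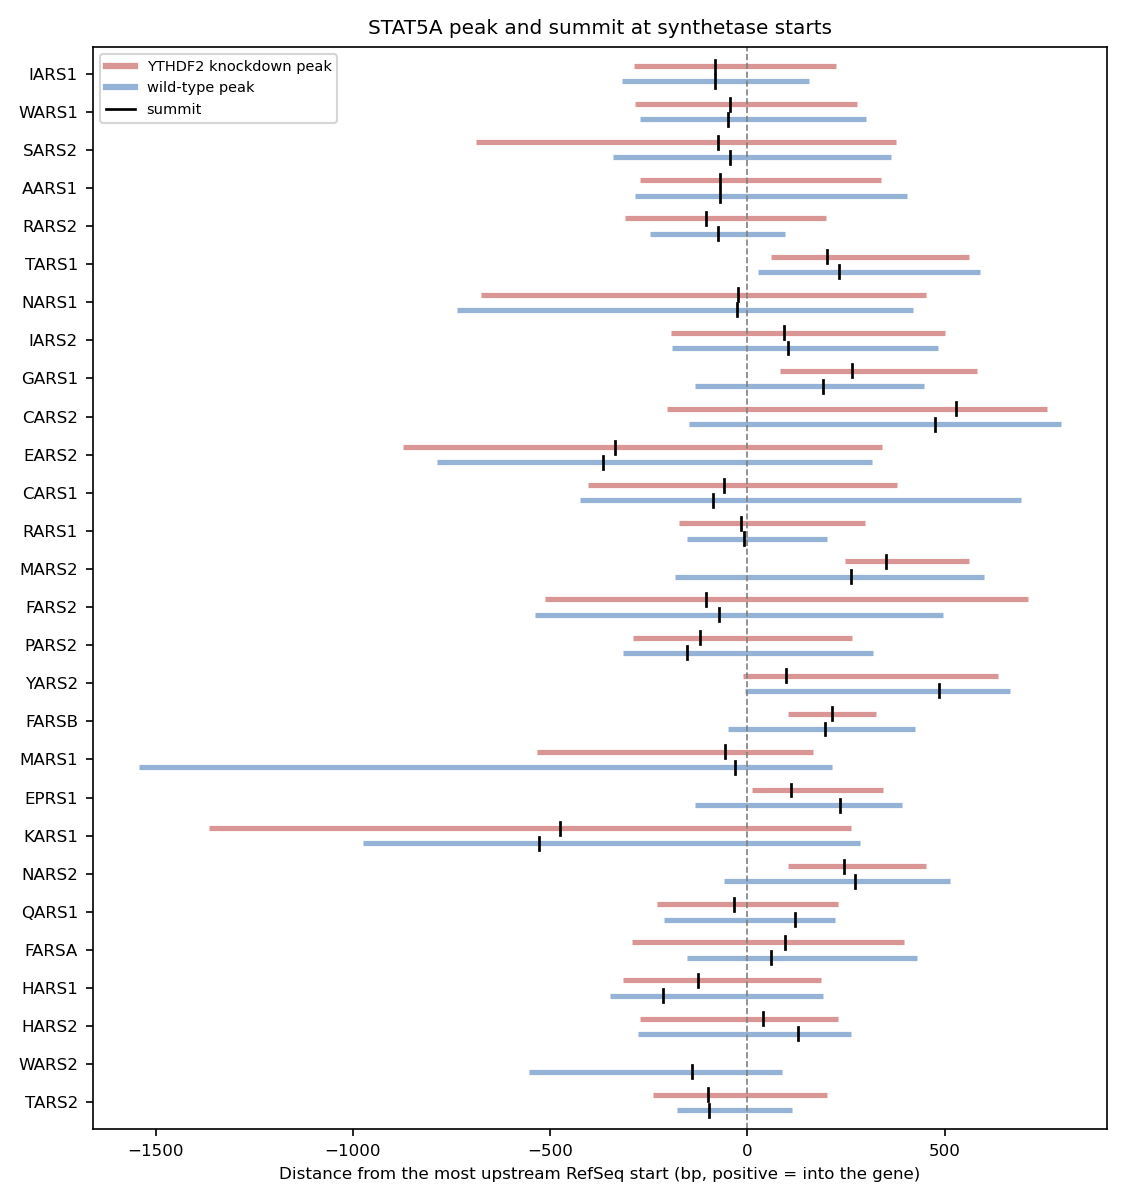
Extent (bars) and summit (black ticks) of the strongest STAT5A peak within 1 kb of each synthetase gene's start, in bp from the most upstream RefSeq start, for knockdown (upper bar) and wild type (lower bar), with genes ordered by wild-type fold. Summits of the 2 lists line up at most genes, within 100 bp at 25 of the 29 genes with overlapping credited peaks, and those of IARS1, WARS1, SARS2 and AARS1 lie just upstream of the start while those of TARS1 lie inside the gene.

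The promoter letters gave a further description of the members. A window of 300 bases, 250 before and 50 after the start, was searched on both strands for 7 motifs in the 30 genes with an entry. CCGGAAG was present in 15 of 30 windows (50%), against 14.1% of protein-coding genes and 18.4% of those with a peak at the start in both lists. TGATGNAAN was present in 6 of 30 (20%), against 2.52% and 1.33%. Of these 6, 5 were cytosolic (AARS1, CARS1, IARS1, MARS1 and NARS1) and 1 mitochondrial (YARS2). The motif of NRF1 was present in 6 of 30 (20%), against 8.60% and 11.6%. GGGCGG (SP factors) was in 20 of 30 (66.7%), against 58.3% and 74.2%, and the E-box CACGTG in 4 of 30 (13.3%), against 8.82% and 10.4%. CCAAT was in 16 of 30 (53.3%), against 36.4% and 36.5%. Both comparison shares refer to the same sets of genes throughout. No test was made of these shares, and a match is not a bound site.

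The palindrome TTCNNNGAA was present in 4 of 30 windows (13.3%), at CARS1, PARS2, TARS1 and WARS2, against 6.99% of protein-coding genes and 5.56% of those with a peak in both lists. At CARS1 the letters were TTCTAGGAA, 70 bp from the knockdown summit and 99 bp from the wild-type summit. At WARS2 they were TTCCAGGAA, 47 bp from the wild-type summit. At TARS1 they were TTCCCGGAA, which shares bases with a CCGGAAG match (TTCCCGGAAG) and lay 253 bp from the knockdown summit and 283 bp from the wild-type summit. At PARS2 they were TTCCTAGAA, 106 bp from the knockdown summit and 73 bp from the wild-type summit. None of the windows of IARS1, WARS1, SARS2 and AARS1 held it.

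Those 4 promoters instead held several CCAAT matches each, as the printed sequences show. SARS2 had 4, and IARS1, WARS1 and AARS1 had 2 each. The match nearest to the summit lay 19 bp from the knockdown summit and 18 bp from the wild-type summit at IARS1. At WARS1 it lay 1 bp from the knockdown summit and 7 bp from the wild-type one. At SARS2 the distances were 15 bp (knockdown) and 17 bp (wild type), and at AARS1 24 bp (knockdown) and 22 bp (wild type). These 4 were all the synthetase starts with a listed window and a knockdown fold of at least 20. LARS1 (30.8 in knockdown and 18.8 in wild type) had no listed window, so its promoter was not searched for matches. None of the other 23 marked starts with a window reached that fold, and 5 of them had 2 or more matches. In wild type, 4 of the 6 starts at a fold of at least 20 had 2 or more matches, RARS2 and TARS1 being the others with 1 each, and 5 of the 22 weaker ones. Of all protein-coding genes, 51.5% of those with a knockdown fold of at least 20 had 2 or more matches, against 9.78% of those with a weaker peak and 10.1% of those with none. In wild type these shares were 37.9% at a fold of at least 20, 7.31% at a weaker peak and 11.1% with none. CARS2 was an exception in the family, with 4 matches and folds of 5.64 in knockdown and 13.4 in wild type. Its summits lay 529 bp (knockdown) and 476 bp (wild type) inside the gene, away from those matches. The outer end of its gene interval lies a further 7007 bp upstream of the listed start, and a peak credited to ING1 lay within 1 kb of that end, with folds of 61.2 in knockdown and 156 in wild type. Of the 30 genes with a listed start, FARS2 was the other whose gene end lay over 1 kb from it, and no peak was within 1 kb of that end in either list. PARS2, TARS2, QARS1 and MARS2 had 2 matches each, at folds from 4.57 to 7.53 in knockdown and from 4.69 to 11.4 in wild type. No cause of the higher folds at promoters with these letters was tested.

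**Figure D3:**
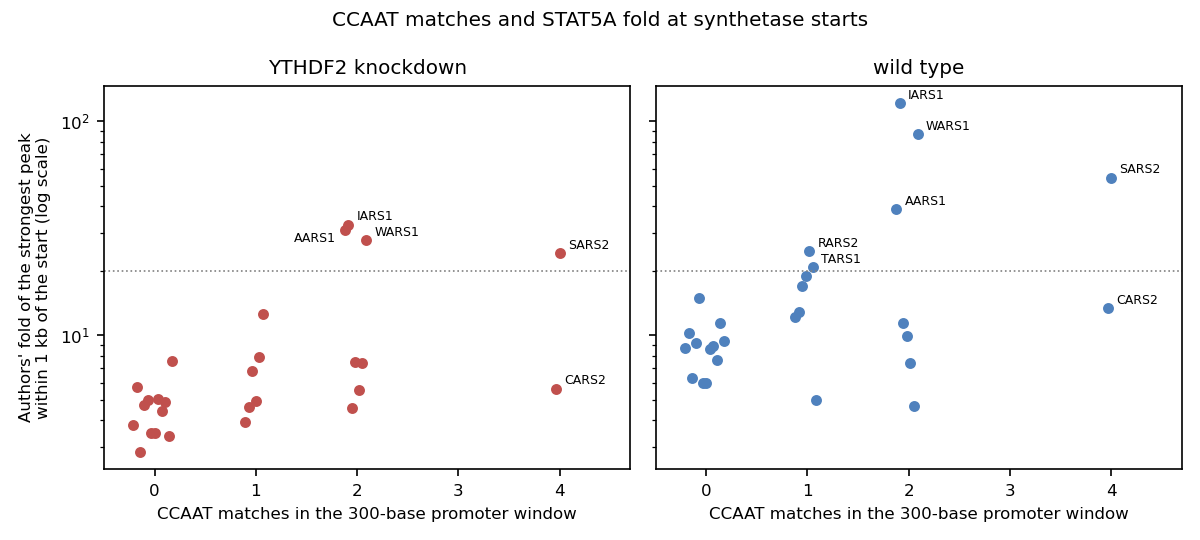
Number of CCAAT matches on either strand in the 300-base promoter window (horizontal axis, points spread sideways for legibility) against the authors' fold of the strongest STAT5A peak within 1 kb of the start (log axis), for knockdown on the left and wild type on the right, 1 point per synthetase gene with a marked listed start. Above a fold of 20 (dotted line) lie IARS1, WARS1, AARS1 and SARS2 in both lists, with RARS2 and TARS1 added in wild type, while CARS2 has 4 matches and a lower fold. LARS1, with a fold of 30.8 in knockdown, has no listed start and is not shown.

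The lists differed more at peaks that spanned no transcript start. Of the 43 knockdown peaks, 37 shared at least 1 bp with the wild-type list (86%, 72.1 to 94.7%, against 77.1% of all knockdown peaks). Of the 66 wild-type peaks, 36 overlapped a knockdown peak (54.5%, 41.8 to 66.9%, against 40.4% of all wild-type peaks). Promoters within 1 kb held 76.7% of the knockdown peaks (49.9% of all) and 65.2% of the wild-type peaks (38.9% of all). A transcript start was spanned by 62.8% of the knockdown peaks (36.5% of all) and 48.5% of the wild-type peaks (28.7% of all). Among the peaks that spanned none, 10 of 16 in knockdown overlapped the other list (62.5%, 35.4 to 84.8%, against 65.5% of all such peaks). In wild type 8 of 34 did (23.5%, 10.7 to 41.2%, against 25.6%). Synthetase peaks outside starts were thus shared at rates near those of other such peaks, though the intervals are wide.

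The 6 knockdown peaks without a wild-type counterpart were all weak and lay at EPRS1, CARS2, SARS1, SARS2, TARS2 and YARS1. Their folds ran from 2.68 to 3.56, below the median of 4.35 of all knockdown peaks. Over all knockdown peaks without a counterpart the median was also lower, 3.95. The 30 wild-type peaks without a knockdown counterpart lay in 12 genes, with folds from 2.74 to 8.06, and 24 of them were below the wild-type median of 6. Over all wild-type peaks without a counterpart the median was likewise lower, 5.09. Of the 30, 17 lay at CARS1, CARS2 and VARS1, and 4 spanned a transcript start. CARS2 on chromosome 13 had 5 peaks in knockdown and 11 in wild type, of which 1 in knockdown and 7 in wild type had no counterpart. Some peaks credited to CARS2 lay in the neighbouring gene NAXD, such as the shared intronic one at 110633119 to 110633373 in knockdown (fold 4.61) and 110633058 to 110633442 in wild type (6.26). CARS1 on chromosome 11 had 1 peak in knockdown and 6 in wild type, the 5 additional ones at folds from 2.96 to 5.86. VARS1 on chromosome 6 had 2 peaks in knockdown, both overlapping its wild-type promoter peak, and 6 in wild type, with 5 along the gene at folds from 3.12 to 6.32. All of these 5 were annotated as promoter peaks, within 2 kb of transcript starts inside the gene, such as 31782009 to 31782518 (fold 4.42).

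Among the peaks outside promoters, a few were present in both lists. One lay 178863 bp (knockdown) and 178850 bp (wild type) from the start of KARS1 that the authors used, at chromosome 16, 75827506 to 75827862 in knockdown with a fold of 5.43 and 75827493 to 75827942 in wild type with 6.59. Another, credited to TARS1, lay 35226 bp (knockdown) and 35163 bp (wild type) from the transcript start the authors used, which lies inside the gene and not at its listed start, over the pseudogene TOMM40P3, with folds of 6.64 in knockdown and 9.29 in wild type. An exon peak of AARS2 began at 44304622 on chromosome 6 in both lists, with folds of 3 in knockdown and 5.28 in wild type. No link between these peaks and the gene they are credited to was measured.

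Genes that work with the synthetases were also marked. Of 17 genes for tRNA charging partners, 13 had a credited promoter peak in both lists (76.5%), against 53.6% of all protein-coding genes. The 4 highest folds in knockdown were at PSTK, a kinase of the selenocysteine tRNA pathway (18.4 in knockdown and 51.8 in wild type), QRSL1 and GATB, subunits of the mitochondrial amidotransferase that makes glutaminyl-tRNA (16.5 and 11.8 in knockdown, 30.6 and 16.3 in wild type), and TARS3, a threonyl-tRNA synthetase gene outside the rule (7.04 in knockdown and 22.7 in wild type). XPOT, the tRNA export receptor gene, had 6.99 in knockdown and 18.1 in wild type, above GATB in the wild-type list. The 4 without were AIMP1, AIMP2, EEF1E1 and TUFM, a mitochondrial elongation factor gene, and each had a peak within 1 kb of its RefSeq start in both lists. TUFM had folds there of 4.65 in knockdown and 15.1 in wild type. Of 12 amino acid response genes, 11 were marked in both lists (91.7%, against 53.6% of all protein-coding genes). PSAT1, an enzyme of serine synthesis, led with 43.4 in knockdown and 112 in wild type. By credited promoter peaks, ATF4 followed with 11.8 in knockdown and 28.9 in wild type, and SESN2 had 6.15 in knockdown and 23.9 in wild type. DDIT3 had credited folds of only 2.43 in knockdown and 3.76 in wild type. The strongest peak within 1 kb of its RefSeq start, whichever gene it was credited to, had 7.15 in knockdown and 32 in wild type. TRIB3 had 8.70 in knockdown and 17.3 in wild type. EIF2AK4, which encodes the GCN2 kinase that senses uncharged tRNA, had 5.43 in knockdown and 9.97 in wild type. SLC7A11, the cystine transporter gene, had no promoter peak in either list.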

How the data were processed

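STAT5A ChIP-seq was analysed in YTHDF2 knockdown and wild-type ARP1 cells, with groups taken from the labels. The sample titles call both inputs RNA, and the molecule label of genomic DNA was followed instead. Per the labels' protocols, chromatin was fixed with formaldehyde, sonicated and pulled down with antibody on magnetic beads. MACS2, Bowtie2, Trimmomatic, cutadapt and FastQC, with the hg38 build, appear in the submitters' processing notes, without settings. Each condition has 1 peak list. The deposited fold enrichment is a linear ratio, the deposited q-value is linear, not a logarithm (the p-value column was not used), and the widths, summits and distances to a start are in bp as deposited. The authors' distance runs from the nearest peak edge. The sources used here name no program for crediting peaks to genes.

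Members were found by symbol and matched by gene identifier to RefSeq (GRCh38.p14), whose current symbols are printed. Overlap meant at least 1 bp and was checked with bedtools; overlap and motif counting were tested on simulated data. Python 3.11.15, numpy 2.4.6, pandas 2.3.3, scipy 1.17.1 and matplotlib 3.10.9 were used. No test between conditions was made. Members, gene lists and motifs were chosen with earlier results of these data known. Genes named with values are those with the highest folds, with several peaks, marked in 1 list or neither, or with a peak credited to a neighbour. Alternatives covered stricter q-values, a minimum fold, a shortened wild-type list, other promoter windows, other overlap rules and merged peaks. The sequences printed were chosen after the values were seen. Some genes of the family enter the counts and medians but are not reported here.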

Additional observations from a re-analysis of the deposited data

How the results depend on the processing

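Of 81 recomputed values (13 results under up to 10 alternatives), 66 stayed within 1.5 times the reported count or median, or inside the interval of the reported share. A minimum fold of 5 changed most: 17 genes were then marked in knockdown, 16 in both lists, 1 (TARS2) in the knockdown list alone and 12 in the wild-type list alone, and 20 knockdown peaks remained. Of the peaks kept, 95% in knockdown and 38.3% in wild type overlapped the other list, and 90% (knockdown) and 76.6% (wild type) lay in promoters. The 12 genes had credited promoter folds under 5 in knockdown and of at least 5 in wild type. When only as many top wild-type peaks were kept as knockdown has, 0 genes were marked in wild type only, 75.6% of wild-type peaks were shared and 77.8% lay in promoters. With distance taken from the summit, 0 genes were marked in wild type only. At q under 0.001, 100% of knockdown peaks were shared, and with summits required within 100 bp, 69.8%. The cause of these changes was not tested where the construction does not give it. No paired analysis was possible because each condition has 1 list and the results come from no test. Reads were not analysed here, so depth limits every statement on a missing peak.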
